A study of Rattus norvegicus with 90 samples.

Results

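The comparison asks how far the response of AR42J cells to gastrin at 4 and 6 h changed when protein synthesis was blocked. The AR42J line comes from a tumour of rat exocrine pancreas. It was measured on bead arrays under 4 stimuli: gastrin with cycloheximide, cycloheximide alone, gastrin alone, and no treatment (control). Every array on which all 4 stimuli shared a batch label at 4 or 6 h was taken, which gave 22 of the 90 arrays of the series. They came from batches 4, 5 and 6 at 4 h and from batches 4 and 5 at 6 h. The gastrin and the gastrin with cycloheximide samples of batch 6 were each hybridised on 2 arrays, labelled as technical replicates and averaged here, so 20 samples in 5 blocks of batch and time remained. All groups share the cell line and differ in the stimulus alone, per the labels, which give no dose, no order of addition and no culture for a batch. The p-values therefore measure the spread between these samples, which may be technical, and batches 4 and 5 each contribute 2 blocks.

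Gastrin is a peptide hormone of the stomach that acts on the CCK2 receptor, a G protein-coupled receptor encoded by Cckbr, and raises calcium and kinase signalling in the cell. Cycloheximide stops elongation at the ribosome. A gene whose response to a stimulus goes on without new protein is called a primary response gene, and one whose response needs new protein a secondary response gene. Cycloheximide by itself is also known to prolong the transcription and slow the decay of many immediate early mRNAs, which is called superinduction.

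For each probe the gastrin effect with cycloheximide (gastrin with cycloheximide minus cycloheximide) and without it (gastrin minus control) was taken in each block. The second was then subtracted from the first. This difference of differences is above 0 where gastrin acted more positively with cycloheximide and below 0 where it acted more positively without it. All levels are on the deposited log2 scale, which ran from 5.51 to 14.84 over all arrays. Differences are fitted log2 values with their standard error (SE, n = 5 blocks), tested with limma and called at an adjusted p under 0.05 over all 22523 probes. Values per sample are given in the order of batches 4, 5 and 6 at 4 h, followed by batches 4 and 5 at 6 h.

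The acinar genes Cela1, Cpa1 and Ctrb1 lay between 13.57 and 14.74 in the 20 samples, near the upper end of the scale, where a further rise could be hidden. Other acinar genes were lower, and mean levels of the 31 on the acinar list ran from 5.98 to 14.48. Prss1, a trypsinogen, differed widely between batches, as given below. Cckbr lay between 9.80 and 11.89. The stromal markers Col1a1 and Col3a1, the leukocyte marker Ptprc and the endothelial marker Cdh5 lay between 5.82 and 6.31, near the lower end. Mean levels ran from 5.76 to 8.51 over the 14 stromal genes and from 5.90 to 6.96 over the 14 immune or endothelial genes. Cckar, Cd68 and Pecam1 had no named probe. None of 14 stromal and 14 immune or endothelial genes was called in the difference of differences (0.0755% of all probes above 0 and 0.0444% below it). The cycloheximide sample of batch 4 at 6 h had the largest residual SD around the fit of the 20 samples, 0.123, followed by 0.111. It also had the lowest weight in limma's array weights, 0.499. The SD of the difference of differences over all probes was largest in batch 5 at 6 h, 0.286, with 0.254 in batch 4 at 6 h. Calls that are lost without batch 4 at 6 h are named with the counts of calls.

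Of 22523 probes, 17 had a difference of differences above 0 (0.0755% of those tested) and 10 had one below 0 (0.0444%). They stood for 12 named genes above 0 and 8 below it, with a second probe of Ihh among the 10 and 6 probes without a gene name. At an unadjusted p under 0.05 there were 1896 probes. Of the probes tested, 5.77% were above 0 in 5 of 5 blocks and 5.5% were below 0 in 5 of 5. The median of all probes was -0.000697. In this fit the gastrin effect itself was called in a similar number of probes in both arms. With cycloheximide 363 rose (1.61%) and 155 fell (0.688%), and without it 278 rose (1.23%) and 209 fell (0.928%). Other settings of the fit gave unequal counts. With and without cycloheximide they were 158 and 64 when blocks were left out of the fit, and 1035 and 1401 with 1 value per block. When each array was centred on its ribosomal protein genes, the split with cycloheximide was 484 higher and 102 lower. Cycloheximide alone against control had 2583 probes higher (11.5%) and 2815 lower (12.5%), and the split was 4487 and 1769 after that centring. The difference uses the samples of both arms, and cycloheximide alone shares its samples with them, so their counts are not independent. The effects in each arm are given below as a description of the genes that the difference chose.

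The count of 27 depended most on batch 5. It was 15 without batch 4, 1 without batch 5 and 32 without batch 6, and 33 without batch 4 at 6 h, of which 16 were among the 27. A fit of 1 value per block, which uses the spread of the difference of differences itself, called 376 probes, including all 27, and a fit of 1 value per batch called 165, including 26 of them. All 20 named genes kept their sign in every one of these fits. They had 1 sign in 5 of 5 blocks, so averages of those blocks could not differ in sign. The calls of 8 were lost without batch 4 at 6 h, namely those of Rnd3, Rhpn2, Ung, Rab19, Kpna1, Klhdc8a, Nupr1 and Ppp4r2, with adjusted p from 0.0507 to 0.166. The calls of Rhpn2, Ung, Klhdc8a, Nupr1 and Ppp4r2 were also lost when batch and time entered as additive blocks, with adjusted p from 0.0733 to 0.281. Without batch 4 the calls of Nr4a2, Dyrk3, Pak1, Ihh, Klhdc8a and Asns were kept, and without batch 5 that of Fut1 alone. Without batch 6 those of Ung, Rab19, Klhdc8a, Fut1 and Ppp4r2 were lost.

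**Figure D1:**
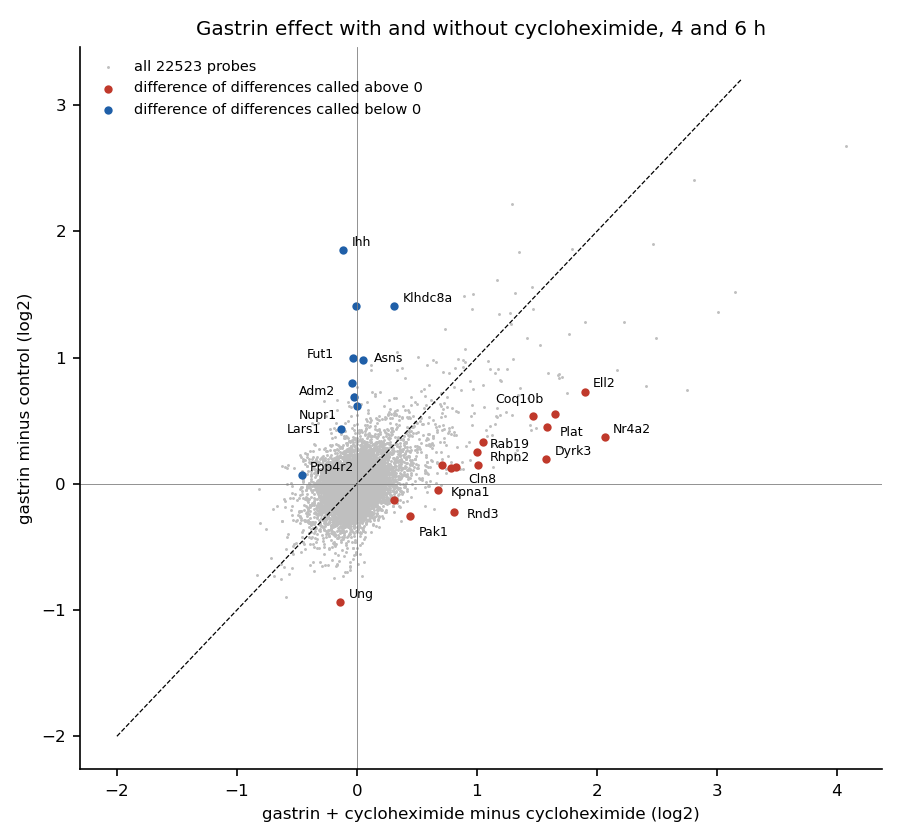
Fitted gastrin effect with cycloheximide (horizontal axis, log2) against that without it (vertical axis, log2) for all 22523 probes, with the 17 probes called above 0 in red, the 10 called below 0 in blue and equal effects on the dashed line. Both axes use separate samples. Ihh lies at -0.12 with cycloheximide and 1.85 without it, and Nr4a2 at 2.06 and 0.37.

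Nr4a2, an orphan nuclear receptor of the immediate early class, had the largest called difference above 0. Its levels were 8.29, 8.97, 8.79, 8.05 and 8.58 with gastrin and cycloheximide, against 6.37, 6.44, 6.47, 6.90 and 6.18 with cycloheximide. They were 6.64, 6.63, 7.80, 6.95 and 6.57 with gastrin, against 6.48, 6.46, 6.59, 6.74 and 6.47 in control cells. All samples with both agents were above all others, while gastrin and control samples overlapped. The gastrin effect was 2.06 ± 0.18 with cycloheximide and 0.37 ± 0.18 without it, and the difference of differences was 1.69 ± 0.26 (adjusted p = 0.0122), above 0 in 5 of 5 blocks. Cycloheximide alone moved Nr4a2 by -0.08 (adjusted p = 0.833).

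Dyrk3, a kinase that dissolves stress granules and other condensates, was at 9.38, 8.96, 8.51, 9.19 and 9.30 with gastrin and cycloheximide, against 7.73, 7.50, 7.12, 7.43 and 7.67 with cycloheximide. It was at 7.88, 7.98, 8.12, 8.48 and 8.17 with gastrin, against 7.76, 7.96, 7.88, 7.82 and 8.22 in control cells. The groups with cycloheximide did not overlap and those without it did. The difference of differences was 1.38 ± 0.18 (adjusted p = 0.00422). Cycloheximide alone changed Dyrk3 by -0.44 (adjusted p = 0.0164), and the samples with both agents were above control cells as well as above cycloheximide.

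Ell2, a subunit of the super elongation complex of RNA polymerase II, and Coq10b, a mitochondrial coenzyme Q binding protein, rose with gastrin in both arms and more so with cycloheximide. Ell2 was at 11.85, 11.70, 11.93, 10.97 and 11.34 with gastrin and cycloheximide, against 9.77, 9.38, 10.47, 9.59 and 9.08 with cycloheximide. It was at 10.38, 10.43, 11.13, 10.46 and 9.90 with gastrin, against 9.71, 9.30, 10.75, 9.43 and 9.46 in control cells. Its groups with cycloheximide did not overlap, and its gastrin effects were 1.90 ± 0.14 with cycloheximide and 0.73 ± 0.14 without it (adjusted p = 8.23e-07 and 0.00938). The difference of differences was 1.17 ± 0.20 (adjusted p = 0.0291), and it was lowest, at 0.35, in batch 4 at 6 h. Coq10b had gastrin effects of 1.47 ± 0.11 and 0.54 ± 0.11 (adjusted p = 7.7e-07 and 0.0105) and a difference of differences of 0.93 ± 0.15 (adjusted p = 0.0179).

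Plat, the tissue-type plasminogen activator, was at 8.41, 8.33, 7.96, 8.14 and 8.84 with gastrin and cycloheximide, against 6.64, 6.60, 6.35, 7.07 and 7.08 with cycloheximide. It was at 6.45, 6.34, 6.92, 6.94 and 6.60 with gastrin, against 6.11, 6.13, 6.27, 6.25 and 6.26 in control cells. Neither pair of groups overlapped, but the gastrin effect of 0.45 ± 0.14 without cycloheximide did not pass (adjusted p = 0.13), while the effect of 1.59 ± 0.14 with it did (adjusted p = 2.95e-06). The difference of differences was 1.14 ± 0.20 (adjusted p = 0.0291). Cycloheximide alone raised Plat by 0.55 (adjusted p = 0.00711).

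Among the remaining genes above 0, Rhpn2, Rab19, a small GTPase of the Rab family, Kpna1, an importin alpha, and Cln8, a cargo receptor of the endoplasmic reticulum, rose by 0.68 to 1.00 with gastrin in the presence of cycloheximide. Without it their gastrin effects lay between -0.05 and 0.25 and none passed. Their differences of differences were 0.86, 0.75, 0.73 and 0.69, with adjusted p between 0.0122 and 0.0391. The value of Rhpn2 in batch 6 was 0.06, against 0.94 to 1.18 in the other 4 blocks. Cln8 was lowered by cycloheximide alone, with a difference of -0.72 (adjusted p = 4.76e-06). It was at 9.05, 8.75, 9.37, 8.81 and 9.02 with both agents, against 7.93, 8.15, 8.77, 8.14 and 7.90 with cycloheximide. Control samples were between 8.74 and 9.20, and the levels with both agents overlapped them.

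For Rnd3, a small GTPase that stays bound to GTP, and Pak1, a kinase activated by Rac and Cdc42, the fitted gastrin effect had opposite signs in the arms. Rnd3 changed by 0.81 ± 0.13 with cycloheximide (adjusted p = 0.00132) and by -0.23 ± 0.13 without it (adjusted p = 0.569), a difference of 1.04 ± 0.18 (adjusted p = 0.0318). Pak1 changed by 0.44 ± 0.07 and -0.25 ± 0.07 (adjusted p = 0.00203 and 0.102), a difference of 0.70 ± 0.11 (adjusted p = 0.0122). Ung, the uracil DNA glycosylase of base excision repair, differed from all of these. It was at 9.20, 9.34, 8.28, 8.98 and 9.23 with gastrin and cycloheximide, against 9.37, 9.40, 8.62, 8.98 and 9.36 with cycloheximide. It was at 8.95, 8.73, 7.95, 8.17 and 9.24 with gastrin, against 9.44, 9.73, 9.07, 9.40 and 10.11 in control cells. Gastrin was below control in each block and the groups with cycloheximide overlapped. Ung changed by -0.94 ± 0.10 with gastrin alone (adjusted p = 7.78e-05) and had a gastrin effect of -0.14 with cycloheximide (adjusted p = 0.658). Its difference of 0.80 ± 0.15 (adjusted p = 0.0391) thus came with a smaller fall rather than a rise. Cycloheximide alone also lowered Ung, by -0.40 (adjusted p = 0.00761), and was below control in each block.

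**Figure D2:**
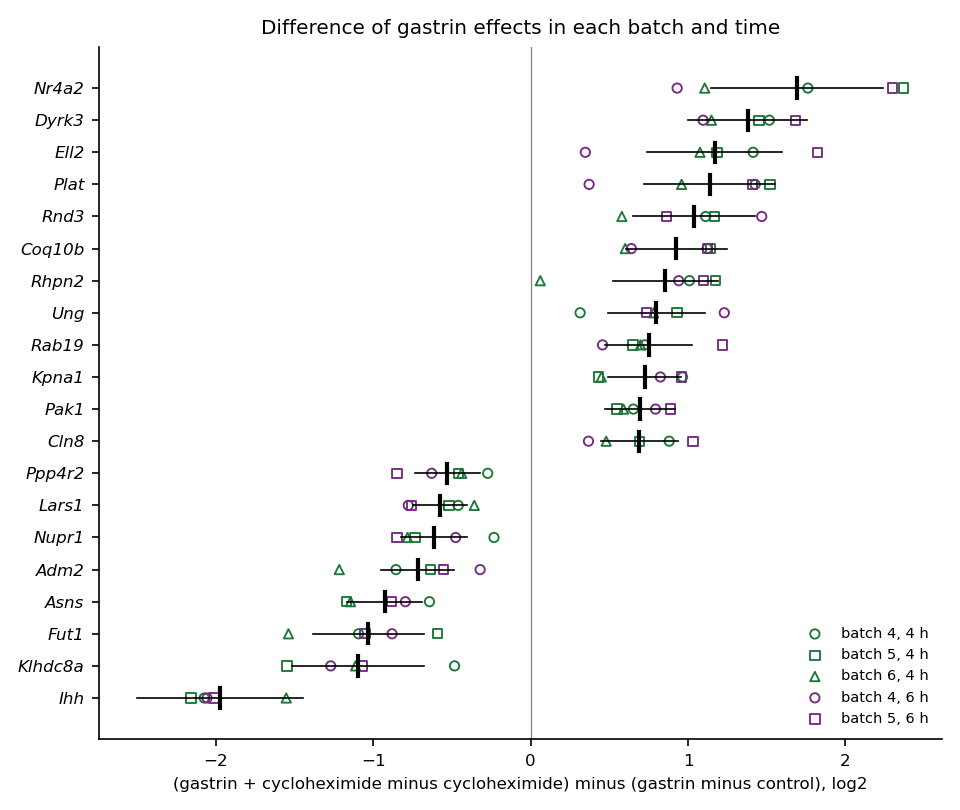
Difference of differences (horizontal axis, log2) of the 20 named genes that were called, in each of the 5 blocks (symbols, batch by shape and time by colour), with the fitted value (thick bar) and its 95% confidence interval from limma (line). All 5 blocks of each gene lie on the same side of 0, which the naming rule required. Ihh runs from -2.16 to -1.55 and Nr4a2 from 0.93 to 2.37.

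Ihh, which encodes the secreted ligand Indian hedgehog, had the largest called difference below 0. Its levels were 6.69, 6.64, 6.77, 6.45 and 6.69 with gastrin and cycloheximide, against 6.77, 6.72, 7.04, 6.65 and 6.63 with cycloheximide. They were 9.38, 8.71, 7.78, 8.36 and 8.78 with gastrin, against 7.39, 6.63, 6.50, 6.51 and 6.70 in control cells. Only the gastrin samples without cycloheximide were high, and each was above every sample of the other groups. The gastrin effect was -0.12 ± 0.18 with cycloheximide (adjusted p = 0.866) and 1.85 ± 0.18 without it (adjusted p = 2.21e-05), a difference of differences of -1.97 ± 0.25 (adjusted p = 0.00422). A second probe of Ihh gave -1.41 ± 0.23 (adjusted p = 0.0168). Smo, the signal transducer of the hedgehog pathway, rose in both arms by 0.84 and 0.99, with a difference of -0.15 (95% interval -0.65 to 0.35).

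Klhdc8a, a kelch domain protein, was at 10.67, 10.71, 10.63, 10.16 and 10.57 with gastrin and cycloheximide, against 10.47, 10.38, 10.48, 9.78 and 10.09 with cycloheximide. It was at 11.05, 11.33, 10.53, 10.74 and 10.84 with gastrin, against 10.36, 9.45, 9.27, 9.09 and 9.29 in control cells. Both agents alone raised it, gastrin by 1.41 ± 0.14 (adjusted p = 2.78e-05) and cycloheximide by 0.75 (adjusted p = 0.00065), while gastrin added 0.31 ± 0.14 in the presence of cycloheximide (adjusted p = 0.385). The difference was -1.10 ± 0.20 (adjusted p = 0.0389), and it did not pass with additive blocks (adjusted p = 0.0733). Fut1, a fucosyltransferase of blood group antigen synthesis, was at 6.28, 6.28, 6.23, 6.15 and 6.01 with both agents, against 6.43, 6.08, 6.41, 6.13 and 6.08 with cycloheximide. It was at 7.94, 7.16, 8.19, 7.67 and 7.06 with gastrin, against 6.99, 6.37, 6.83, 6.77 and 6.08 in control cells. The gastrin samples alone were above control, and the difference was -1.03 ± 0.17 (adjusted p = 0.0168). Cycloheximide alone changed Fut1 by -0.38 (adjusted p = 0.0232). Its levels with cycloheximide, with or without gastrin, lay near the lower end of the scale, where changes may be compressed. Adm2, a peptide hormone of the calcitonin family, had gastrin effects of -0.03 with cycloheximide and 0.69 ± 0.08 without it, a difference of -0.72 ± 0.11 (adjusted p = 0.0122). With cycloheximide alone Adm2 changed by -0.41 (adjusted p = 0.000763), and its mean level over the samples was 6.90.

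Ppp4r2, a regulatory subunit of protein phosphatase 4, was the one gene of the 8 that gastrin lowered with cycloheximide. It was at 9.93, 9.76, 9.87, 9.69 and 9.58 with both agents, against 10.26, 10.03, 10.47, 10.18 and 10.19 with cycloheximide, and these groups did not overlap. It was at 10.18, 10.11, 10.15, 9.998 and 10.31 with gastrin, against 10.24, 9.93, 10.30, 9.85 and 10.08 in control cells, and these did. The gastrin effects were -0.46 ± 0.07 (adjusted p = 0.000823) and 0.07 ± 0.07 (adjusted p = 0.815), a difference of -0.53 ± 0.10 (adjusted p = 0.0437). That call held in 6 of the 17 other settings of the fit.

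The other genes called below 0 belong to amino acid metabolism and its transcriptional response. Asns, asparagine synthetase, was at 8.26, 7.86, 8.14, 8.15 and 8.05 with gastrin and cycloheximide, against 8.06, 7.95, 8.20, 8.11 and 7.88 with cycloheximide. It was at 10.14, 9.74, 10.39, 9.86 and 9.70 with gastrin, against 9.30, 8.65, 9.31, 9.03 and 8.65 in control cells. Every gastrin sample was above every control sample, and every sample with cycloheximide, with or without gastrin, was below every control sample. The gastrin effect was 0.05 ± 0.08 with cycloheximide (adjusted p = 0.87) and 0.98 ± 0.08 without it (adjusted p = 4.18e-06), a difference of -0.93 ± 0.11 (adjusted p = 0.00422). Cycloheximide alone changed Asns by -0.95 (adjusted p = 1.75e-07). Nupr1, a stress-induced chromatin protein first described in pancreatitis, had gastrin effects of -0.00044 ± 0.07 and 0.61 ± 0.07 (adjusted p = 0.998 and 0.000107), a difference of -0.62 ± 0.10 (adjusted p = 0.017). Its levels differed more between batches than between stimuli, from 11.60 to 13.21 with both agents and from 11.62 to 13.40 with cycloheximide, and from 12.47 to 13.78 with gastrin and from 11.65 to 13.19 in control cells. Lars1, the leucyl-tRNA synthetase, had gastrin effects of -0.14 ± 0.06 and 0.44 ± 0.06 (adjusted p = 0.323 and 0.000406), a difference of -0.57 ± 0.08 (adjusted p = 0.00864).

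**Figure D3:**
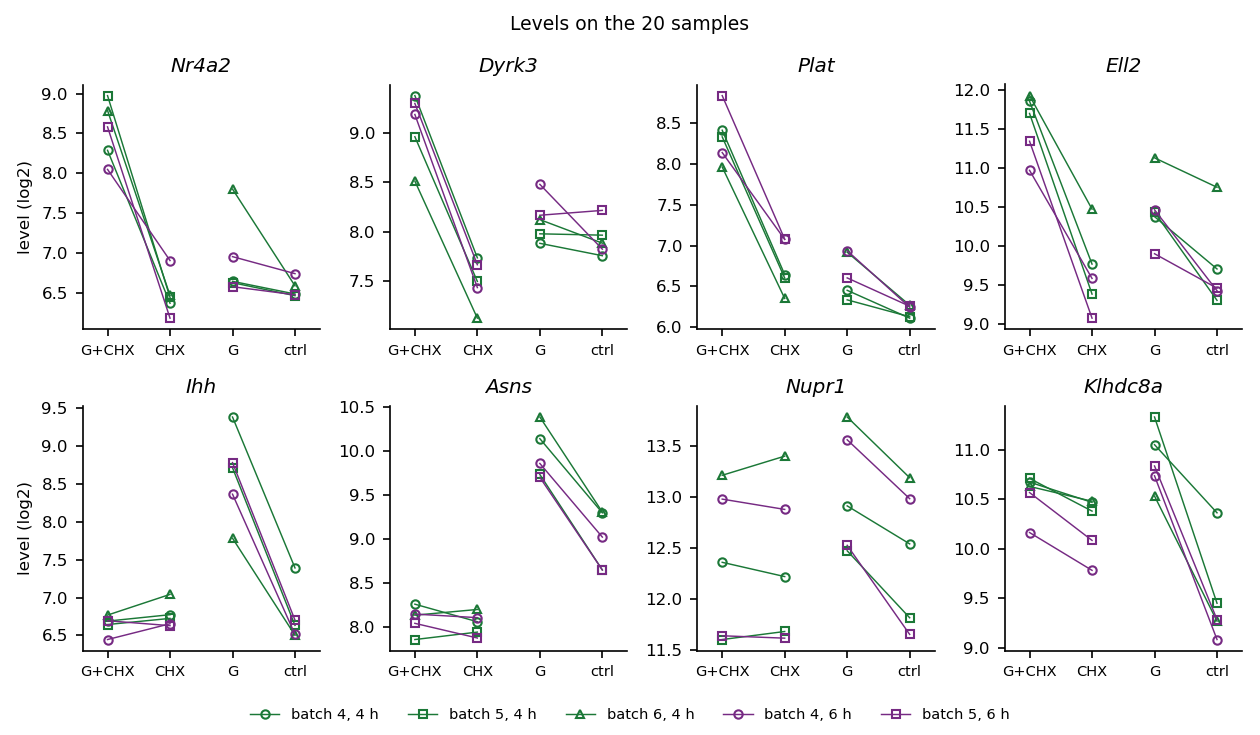
Levels (vertical axes, log2, each with its own range) of 8 called genes in the 20 samples: gastrin with cycloheximide (G+CHX), cycloheximide (CHX), gastrin (G) and control (ctrl). Lines join the samples of one block, with batch by shape and time by colour. In the upper row the gap between G+CHX and CHX is the larger one, and in the lower row the gap between G and ctrl is, with means of 9.97 and 8.99 for Asns.

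The ATF4 pathway raises genes of amino acid synthesis, amino acid uptake and tRNA charging when amino acids run short or proteins misfold. Its factor ATF4 and partners of the C/EBP family bind a composite element, often read as TGATGNAA. Both strands of the 250 bases before each gene's start were searched for these letters, in RefSeq promoters of rat assembly GRCr8. They occurred in 3.27% of 27457 promoters, in 6 of the 24 promoters found for the 27 genes of the ATF4 list, and in 4 of the 14 found for 16 cytosolic aminoacyl-tRNA synthetases. A match is a description and no site of binding. Of the 6 promoters found for the 8 genes called below 0, that of Nupr1 held the element, with its first base at -55 from the start. The promoters of Nupr1 (chr1:190645902-190646151, minus strand), Trib3 (chr3:161275534-161275783, minus strand) and Tars1 (chr2:62114803-62115052, minus strand) are shown as examples of promoters that hold a match, which is in capitals. Nupr1 is the called gene among them, Trib3 has the largest difference of the list members with a match, and Tars1 is one of the 4 synthetases with a match, chosen after its values were seen. The promoters of the called genes Asns and Lars1 held none in this window.
Nupr1: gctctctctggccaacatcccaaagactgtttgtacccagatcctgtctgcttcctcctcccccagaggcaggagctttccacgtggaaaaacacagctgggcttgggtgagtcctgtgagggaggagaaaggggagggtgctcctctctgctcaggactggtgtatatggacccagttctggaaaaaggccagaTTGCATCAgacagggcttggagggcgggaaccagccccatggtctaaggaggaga
Trib3: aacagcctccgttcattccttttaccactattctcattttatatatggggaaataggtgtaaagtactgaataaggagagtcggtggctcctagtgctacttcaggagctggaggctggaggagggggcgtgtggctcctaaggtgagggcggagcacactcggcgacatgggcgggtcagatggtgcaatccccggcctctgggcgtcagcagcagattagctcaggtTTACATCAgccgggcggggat
Tars1: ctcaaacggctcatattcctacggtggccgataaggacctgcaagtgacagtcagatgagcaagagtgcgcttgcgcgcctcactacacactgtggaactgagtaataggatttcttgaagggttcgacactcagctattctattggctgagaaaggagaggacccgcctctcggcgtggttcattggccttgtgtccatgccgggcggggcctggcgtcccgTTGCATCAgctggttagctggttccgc

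This and the other gene lists were chosen with earlier results of these data known. The shares of all probes beside them therefore describe the lists and test nothing. Over the 27 measured genes of the ATF4 list, gastrin raised 3 with cycloheximide and 10 without it (1.61% and 1.23% of all probes), and lowered 0 in both arms. The difference of differences was called below 0 in 2 of them, Asns and Nupr1, and above 0 in 0 (0.0444% and 0.0755% of all probes). It was below 0 in 5 of 5 blocks in 12 and above 0 in 5 of 5 in 1, where 5.5% and 5.77% of all probes were. The list's median was -0.23, beside -0.000697 over all probes. Of the members with the next largest values, Trib3, a pseudokinase that inhibits ATF4, was at 6.74, 7.06, 7.16, 6.84 and 6.88 with both agents, against 6.81, 6.76, 7.03, 6.68 and 6.83 with cycloheximide. It was at 8.57, 7.54, 8.65, 8.55 and 7.50 with gastrin, against 7.46, 6.76, 7.47, 7.84 and 6.75 in control cells. Gastrin was above control in each block, the groups with cycloheximide overlapped, and the difference of -0.79 ± 0.26 did not pass (adjusted p = 0.359). Psph, the last enzyme of serine synthesis, had a difference of -0.74 ± 0.19 (adjusted p = 0.22).

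Atf4 itself was at 12.17, 12.79, 12.56, 12.80 and 12.44 with gastrin and cycloheximide, against 12.55, 12.43, 12.23, 13.01 and 12.67 with cycloheximide. It was at 12.04, 11.88, 12.49, 12.18 and 11.82 with gastrin, against 11.32, 11.31, 11.64, 11.51 and 11.06 in control cells. Cycloheximide alone thus raised the Atf4 mRNA, by 1.21 (adjusted p = 2.99e-06), and gastrin alone by 0.71 (adjusted p = 0.00659), while gastrin on top of cycloheximide moved it by -0.03 (adjusted p = 0.969). The difference of -0.74 ± 0.19 did not pass (adjusted p = 0.204). The Atf4 mRNA and the Asns mRNA stood on opposite sides of control cells under cycloheximide. Of the 5 members of the list with a difference above 0, none of which passed, Slc38a2 had the largest. This neutral amino acid transporter, chosen after its values were seen, had gastrin effects of 0.74 with cycloheximide (adjusted p = 0.0179) and 0.08 without it (adjusted p = 0.927) and a difference of 0.66 ± 0.23 (adjusted p = 0.41). Slc7a5, a subunit of the leucine transporter chosen likewise, rose in both arms, by 0.90 and 0.96, with a difference of -0.06 ± 0.21.

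Of the 16 aminoacyl-tRNA synthetases, which charge tRNAs with their amino acids, gastrin raised 0 with cycloheximide and 7 without it (1.61% and 1.23% of all probes). Lars1 was called below 0 in the difference and 0 were called above it (0.0444% and 0.0755% of all probes). In 5 of 5 blocks 7 were below 0 and 0 above 0 (5.5% and 5.77% of all probes). The median of the 16 was -0.29. Eprs1, the glutamyl-prolyl-tRNA synthetase, had a difference of -0.75 ± 0.20 and Gars1, the glycyl-tRNA synthetase, one of -0.66 ± 0.13, which did not pass (adjusted p = 0.221 and 0.0688). The valyl-tRNA synthetase Vars1 was at 0.47 ± 0.20 (adjusted p = 0.543). Cycloheximide alone lowered 9 of the 16 and raised 0 (12.5% and 11.5% of all probes). Genes of the unfolded protein response, which restores folding in the endoplasmic reticulum, were raised by gastrin in 2 of 26 with cycloheximide and 4 of 26 without it (1.61% and 1.23% of all probes). Their median difference was -0.13, with 0 called (0.0755% of all probes above 0 and 0.0444% below it). The largest were the folding enzymes Pdia4 (-0.53 ± 0.18) and Pdia3 (-0.49 ± 0.19), with adjusted p of 0.389 and 0.461. At 6 h alone the median difference was -0.11 in the ATF4 list and -0.10 in the synthetases, and at 4 h alone it was -0.39 and -0.35. Not all named synthetases followed that median. Eprs1 was at -0.16, -0.29 and -0.57 at 4 h and at -1.42 and -1.31 at 6 h. Lars1 was at -0.46, -0.52 and -0.36 at 4 h and at -0.78 and -0.76 at 6 h. Vars1 was at 0.99, -0.21 and -0.28 at 4 h and at 1.01 and 0.84 at 6 h. The change of the difference between the times was called in 0 of 22523 probes (0%), with 1211 at an unadjusted p under 0.05. In batches 4 to 6, all 6 h arrays have a running number in their titles and no 4 h array has one. Time and title series therefore cannot be told apart there, while each block lies within 1 title series. Without batch 4 at 6 h the medians of the ATF4 list and the synthetases were -0.30 and -0.30.

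CREB, a factor activated by cyclic AMP and calcium, binds the letters TGACG, singly or as the palindrome TGACGTCA, which holds them on both strands. On either strand of the same 250 bases TGACG occurred in 19% of all promoters and the palindrome in 1.7%. The first was in 12 of 19 promoters found for the CREB target list, in 11 of 14 for the immediate early list and in 5 of 9 found for the 12 genes called above 0. It was also in 11 of 19 promoters of replication genes, which gastrin did not raise, in 8 of 24 of the ATF4 list and in 5 of 14 of the synthetases. The palindrome was in 5 of the 19 promoters of CREB targets and in 2 of those 9, Ell2 and Pak1. The CREB and ATF4 lists are named for targets of these factors, so a share above that of all promoters is no independent result. The promoters of Nr4a2 (chr3:62104888-62105137, minus strand), Ell2 (chr2:6921602-6921851, plus strand) and Coq10b (chr9:64047918-64048167, plus strand) are shown because these genes had the largest differences among the 5 called genes with a match, with TGACG and its reverse complement in capitals and the palindrome as the longer run in Ell2. Dyrk3, Rnd3, Rhpn2 and Ung were called above 0 as well and held no match in this window.
Nr4a2: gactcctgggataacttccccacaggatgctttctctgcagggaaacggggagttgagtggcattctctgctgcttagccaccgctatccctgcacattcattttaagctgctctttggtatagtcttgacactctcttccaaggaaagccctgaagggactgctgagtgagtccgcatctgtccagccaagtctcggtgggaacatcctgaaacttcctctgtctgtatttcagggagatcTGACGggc
Ell2: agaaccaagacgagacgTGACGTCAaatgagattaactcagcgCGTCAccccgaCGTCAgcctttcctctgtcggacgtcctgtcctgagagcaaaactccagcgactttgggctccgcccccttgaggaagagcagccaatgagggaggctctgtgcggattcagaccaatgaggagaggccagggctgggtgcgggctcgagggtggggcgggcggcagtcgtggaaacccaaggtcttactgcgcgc
Coq10b: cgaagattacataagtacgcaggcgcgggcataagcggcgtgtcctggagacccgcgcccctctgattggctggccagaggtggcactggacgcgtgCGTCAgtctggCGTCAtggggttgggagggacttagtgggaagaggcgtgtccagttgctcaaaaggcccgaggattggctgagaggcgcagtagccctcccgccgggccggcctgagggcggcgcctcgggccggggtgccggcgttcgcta

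Of 23 measured CREB targets, gastrin raised 13 with cycloheximide and 5 without it (1.61% and 1.23% of all probes), and lowered 0 in both arms. The difference of differences was called above 0 in 1, Nr4a2, and below 0 in 0 (0.0755% and 0.0444% of all probes). It was above 0 in 5 of 5 blocks in 12 and below 0 in 5 of 5 in 0 (5.77% and 5.5% of all probes). The median was 0.39. The list shares Fos, Nr4a2 and Nr4a3 with the immediate early list, and cycloheximide alone raised 9 of its members and lowered 0 (11.5% and 12.5% of all probes). Crem, a CREB family factor whose short form represses these targets, was at 11.17, 11.32, 11.51, 11.07 and 11.50 with both agents, against 7.52, 8.06, 8.12, 8.92 and 8.17 with cycloheximide. It was at 8.60, 8.22, 10.35, 9.58 and 8.11 with gastrin, against 6.81, 7.12, 8.28, 7.79 and 7.26 in control cells. All samples with both agents were above all others. The gastrin effect was 3.15 with cycloheximide and 1.52 without it (adjusted p = 2.15e-06 and 0.00428), but the difference of 1.63 ± 0.38 did not pass (adjusted p = 0.134). Gem, a small GTPase, had effects of 2.41 and 0.78 and a difference of 1.63 ± 0.38 (adjusted p = 0.137).

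The immediate early list holds transcription factors that are switched on within minutes of a signal without new protein. Of its 23 measured members gastrin raised 7 and lowered 1 with cycloheximide (1.61% and 0.688% of all probes), and raised 2 and lowered 0 without it (1.23% and 0.928%). The difference was called above 0 in Nr4a2 alone (0.0755% of all probes) and had a median of 0.35. It was above 0 in 5 of 5 blocks in 7 and below 0 in 5 of 5 in 0 (5.77% and 5.5% of all probes). Nr4a3, a paralogue of Nr4a2, was at 10.88, 11.34, 11.28, 10.69 and 10.27 with both agents, against 6.88, 6.49, 6.54, 7.60 and 6.57 with cycloheximide. It was at 9.72, 8.93, 10.18, 8.95 and 8.20 with gastrin, against 6.65, 6.24, 6.41, 6.97 and 6.33 in control cells. It rose in both arms, by 4.07 and 2.68 (adjusted p = 1.34e-07 and 2.21e-05), and its difference of 1.40 ± 0.36 did not pass (adjusted p = 0.207).

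Fos, a subunit of AP-1, had the highest difference of all probes, 2.01 ± 0.51, and did not pass (adjusted p = 0.194). It was at 9.83, 10.76, 10.99, 11.79 and 10.87 with both agents, against 6.85, 7.30, 7.66, 10.96 and 7.70 with cycloheximide. It was at 6.51, 6.51, 9.05, 8.55 and 6.80 with gastrin, against 6.10, 6.21, 6.996, 8.22 and 6.20 in control cells. The value of 10.96 is that of the array with the largest residual SD, and the control of the same block was also the highest of its group. Without that block the median of the immediate early list was 0.31. It was 0.17 without batch 5, where 5 of the 23 members were below 0 in every remaining block, and it was 0.42 at 6 h alone and 0.22 at 4 h alone. Ier2, a short-lived regulator of this class, had a difference of 0.75 ± 0.27 (adjusted p = 0.446). Cycloheximide alone raised 14 of the 23 members and lowered 1 (11.5% and 12.5% of all probes). Jun and Egr1, chosen after their values were seen, rose by 2.69 and 2.41 with cycloheximide alone (adjusted p = 6.05e-09 and 7.26e-06), while their gastrin effects at these times were -0.02 and 0.43 with cycloheximide and -0.10 and 0.04 without it, and none of the 4 passed.

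**Figure D4:**
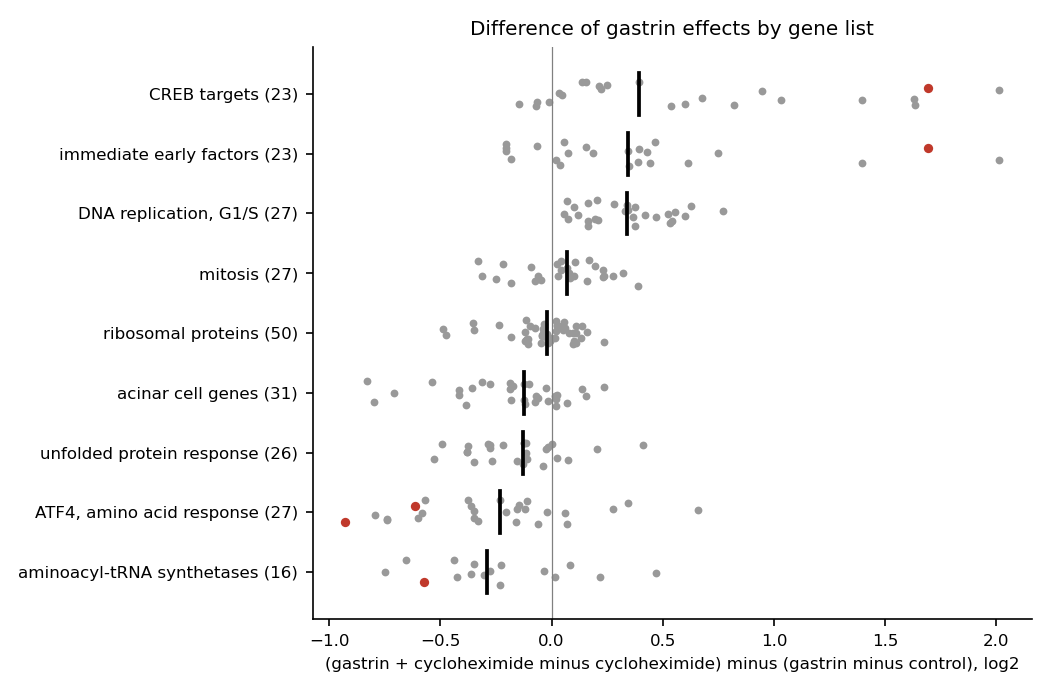
Difference of differences (horizontal axis, log2) of the measured members of 9 gene lists, with the number of members in brackets, called members in red, others in grey and the median as a bar. Medians run from 0.39 for CREB targets to -0.29 for aminoacyl-tRNA synthetases, and all 27 replication genes lie above 0.

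Genes of DNA replication and entry into S phase moved down with gastrin in the arm without cycloheximide. Of 27 measured members, gastrin lowered 0 with cycloheximide and 14 without it (0.688% and 0.928% of all probes), and raised 0 in both arms. The difference was called in 0 of them (0.0755% of all probes above 0 and 0.0444% below it), with a range from 0.06 to 0.77 and a median of 0.34. It was above 0 in 5 of 5 blocks in 18 and below 0 in 5 of 5 in 0 (5.77% and 5.5% of all probes). Mcm6, a subunit of the replicative helicase, was at 12.42, 12.15, 11.51, 12.24 and 12.15 with both agents, against 12.15, 12.35, 11.67, 11.98 and 12.10 with cycloheximide. It was at 12.02, 11.54, 11.03, 10.92 and 11.67 with gastrin, against 12.48, 12.39, 11.72, 11.97 and 12.26 in control cells. Gastrin was below control in each block, and the groups with cycloheximide overlapped. Its difference of 0.77 ± 0.15 did not pass (adjusted p = 0.0573), and neither did those of Mcm3, another subunit of that helicase (0.63 ± 0.22), Pole2, a DNA polymerase epsilon subunit (0.60 ± 0.18), and Cdc6, a loading factor of the helicase (0.56 ± 0.16), with adjusted p between 0.273 and 0.41. Cycloheximide alone lowered 14 of the 27 (12.5% of all probes). In bulk samples fewer cells in S phase and less RNA per cell cannot be told apart. Without batch 4 at 6 h the median was 0.33, and it lay between 0.29 and 0.34 when each batch was left out. Ung, called above 0 and lowered by gastrin alone, is also a gene of DNA metabolism but is not on this list. Genes of mitosis had a median of 0.07 that changed sign between the times, at -0.08 at 6 h alone and 0.15 at 4 h alone, and was -0.0070 without batch 4. Gastrin lowered 1 of 27 with cycloheximide and 1 of 27 without it (0.688% and 0.928% of all probes).

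Acinar genes had no called difference, where 0.0755% of all probes were called above 0 and 0.0444% below it. Gastrin raised 0 of 31 with cycloheximide and 5 of 31 without it (1.61% and 1.23% of all probes). In 5 of 5 blocks 6 were below 0 (5.5% of all probes), and the median difference was -0.12 (-0.19 at 6 h alone and -0.10 at 4 h alone). Prss1, a trypsinogen, was at 9.06, 8.77, 11.72, 9.79 and 9.60 with both agents, against 9.18, 8.97, 11.52, 9.49 and 9.21 with cycloheximide. It was at 10.37, 10.29, 14.14, 11.51 and 11.20 with gastrin, against 9.91, 9.71, 12.46, 10.47 and 10.25 in control cells. Batch 6 was the highest in every group. Its difference of -0.83 ± 0.21 did not pass (adjusted p = 0.178), nor did that of the elastase Cela3b, -0.71 ± 0.20 (adjusted p = 0.289). Trypsinogens are near-identical paralogues, and cross-hybridisation between them was not tested.

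Of 27 growth factor and invasion genes, Plat alone was called, above 0 (0.0755% of all probes). Hbegf, a ligand of the EGF receptor, rose by 0.71 with gastrin in cycloheximide (adjusted p = 0.000533), against 0.20 without it (adjusted p = 0.49), and its difference of 0.51 ± 0.14 did not pass (adjusted p = 0.277). Of 20 NF-kB and cytokine targets 0 were called. Nfkbiz, an atypical inhibitor of NF-kB, rose in both arms, by 1.60 and 0.88 (adjusted p = 1.61e-06 and 0.00106), with a difference of 0.72 ± 0.18 (adjusted p = 0.205). In the list of MAPK feedback and mRNA decay 0 of 24 were called, and Rgs2, which speeds the turn-off of Gq proteins, was at 1.03 ± 0.39 (adjusted p = 0.465). Among clock genes, 0 of 13 were called, and Per1, a repressor of the clock and a CREB target, rose by 2.22 with cycloheximide and 1.28 without it (adjusted p = 8.23e-07 and 0.000443), with a difference of 0.94 ± 0.24 (adjusted p = 0.205). Of 50 ribosomal proteins 0 were called. With 0.0755% of all probes called above 0 and 0.0444% below it, 0 calls do not set lists of these sizes apart.

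Gastrin and control arrays of batches 2 and 3 at 4 and 6 h, 8 arrays that had no cycloheximide and share no array with the 20 samples, gave lists of gastrin responses that are independent of both arms. A probe entered with an adjusted p under 0.05, a change of at least 0.5 and the same sign in all pairs. The lists held 241 rises (1.07% of probes) and 140 falls (0.622%). Of the rises, gastrin raised 97 with cycloheximide and 118 without it in batches 4 to 6 (1.61% and 1.23% of all probes). Their median effects were 0.32 and 0.45, and gastrin lowered 0 of them in both arms. Their difference of differences was called above 0 in 1, Plat (0.0755% of all probes). It was called below 0 in 6, Ihh, Klhdc8a, Fut1, Asns, Adm2 and Nupr1 (0.0444% of all probes). It was above 0 in 5 of 5 blocks in 37 (15.4%) and below 0 in 5 of 5 in 61 (25.3%), against 5.77% and 5.5% of all probes. Its median was -0.13, with -0.06 at 6 h alone and -0.13 at 4 h alone. In the fit of 1 value per block 32 of the rises were called above 0 and 37 below it. That fit called 223 of all 22523 probes above 0 and 153 below it. Of the falls, gastrin lowered 10 with cycloheximide and 21 without it (0.688% and 0.928% of all probes), with median effects of -0.13 and -0.24. The median difference was 0.10, and it was above 0 in 5 of 5 blocks in 23 (16.4%) and below 0 in 5 of 5 in 1 (0.714%), with 0 called.

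Several of the largest rises of batches 2 and 3 passed in both arms. Rrad, a small GTPase, rose by 1.79 with cycloheximide and 1.86 without it, with a difference of -0.07 (95% interval -0.66 to 0.52). Mylk2, a myosin light chain kinase, rose by 1.46 and 1.56, with a difference of -0.10 (95% interval -0.57 to 0.37), and Kcnh1, a potassium channel, by 1.19 and 1.35, with a difference of -0.16 (95% interval -0.68 to 0.35). These intervals still allow a difference of that size. Nppc, the C-type natriuretic peptide, was at 1.69 and 0.87, of which the first passed (adjusted p = 0.00626 and 0.237). The gene 1810009J06Rikl rose by 1.29 and 2.22 (adjusted p = 0.000626 and 6.93e-06), with a difference of -0.93 ± 0.27 that did not pass (adjusted p = 0.293). Casp12, a caspase of the endoplasmic reticulum, rose by 1.60 in batches 2 and 3 but had effects of 0.22 and 0.35 in batches 4 to 6, and neither passed. Of the falls, Ret, a receptor tyrosine kinase, changed by -0.29 with cycloheximide and -0.65 without it (adjusted p = 0.18 and 0.00141), with a difference of 0.36 ± 0.14 (adjusted p = 0.488).

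The genes called in the difference can be set beside their gastrin effect in batches 2 and 3, which the call did not use. In that fit, without a size minimum, 6.92% of all probes were called higher and 7.12% lower. Of the 8 genes called below 0, 7 had risen there, Asns by 1.39, Adm2 by 1.10, Fut1 by 0.98, Klhdc8a by 0.81, Nupr1 by 0.66, Ihh by 0.58 and Lars1 by 0.47, with adjusted p of at most 3.29e-05. The second Ihh probe did not pass there, at 0.16 (adjusted p = 0.0773). Ppp4r2 was at -0.09 (adjusted p = 0.391). Of the 12 called above 0, 6 had risen there, Plat by 0.75, Ell2 by 0.49, Coq10b by 0.44, Nr4a2 by 0.38, Rab19 by 0.30 and Dyrk3 by 0.28. Ung, Rnd3 and Pak1 had fallen there, with values of -0.41, -0.31 and -0.29. Rhpn2, Kpna1 and Cln8 had not passed, with values of 0.05, -0.12 and 0.05.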

How the data were processed

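Levels came from the series' table of log2 values that the authors deposited. The software was lumi 2.4.0, per the submitters' processing notes. Background correction, normalisation and whether the log2 scale is plain or variance-stabilised were not given in the sources used here. A difference need not be a log2 ratio of intensities at the dim end. Array medians were 6.403 to 6.406, and 0 arrays were identical. The number of arrays limits the precision. Of 22523 probes, 13793 have 1 symbol, 8730 none and 0 several. Where several probes share a gene, the brightest on average was used, which gave 13337 genes.

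limma 3.58.1 in R 4.3.3 (lmFit, eBayes) was fitted to the 20 samples with stimulus and 5 blocks of batch and time, and p-values were adjusted by Benjamini-Hochberg across all probes. The script was tested on simulated data. The block follows the batch label. In all 18 and 12 same-batch pairs of different stimuli, deviations from the group mean correlated, at 0.371 to 0.835 at 4 h and 0.323 to 0.693 at 6 h. Each group at 6 h held batches 4 and 5 alone, so their deviations mirror each other and the pairs of batch 5 repeat those of batch 4. At 4 h the different-batch pairs ran from -0.693 to 0.355, and 11 of 36 were over 0.1.

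Named genes were up to 14 called genes each way with 1 sign in 5 of 5 blocks, the 10 largest rises and 6 largest falls of batches 2 and 3, and up to 4 members of each of 24 lists by size of difference. Members and lists were chosen with earlier results of these data known. Lists set beside shares of all probes had mean levels from 7.93 (CREB targets) to 10.26 (unfolded protein response). The mean over all probes was 7.29. Alternatives were other blocks, units of replication, weights, scalings, times and left-out batches. Promoters are RefSeq's, of GRCr8. Arrays of batch 3 at 12 h with contradictory labels entered no comparison.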

Additional observations from a re-analysis of the deposited data

Results flagged for a closer look

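Among the 5 blocks, a gene's difference of differences was marked where the highest or lowest block lay far from the others by Dixon's test. This held for 10 of 120 named genes, where chance marks about 1 in 20. Batch 6 was the block in 7 of the 10. It was at 0.0614 for Rhpn2, against 0.94 to 1.18 in the other blocks, at -1.55 for Ihh, against -2.16 to -2.01, and at -1.49 for Prss1, against -0.78 to -0.56. It was at 0.61 for Pclaf, a PCNA binding protein, against -0.04 to 0.14, and at 0.0444 for Nfkbia, the inhibitor of NF-kB, against 0.63 to 0.84. It was at 0.17 for Rpl7, a ribosomal protein, against -0.55 to -0.40, and at -0.16 for Birc2, an inhibitor of apoptosis, against 0.56 to 0.71.

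Batch 4 at 6 h was at 1.32 for Mcm6, against 0.53 to 0.72 in the others, and batch 4 at 4 h at -0.94 for Rps12, a ribosomal protein, against -0.32 to -0.13. Batch 5 at 4 h was at -0.66 for Kcnh1, against -0.11 to 0.07. Rhpn2 and Ihh were called, and their other blocks lay on the same side of 0.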

How the results depend on the processing

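The sign of the difference of differences of the 20 called genes was kept under all 17 other settings of the fit, and the number still called ranged from 0 (4 h alone) to 20. As each gene had 1 sign in 5 of 5 blocks, settings that average or leave out blocks could not change that sign. The counts of calls moved with the setting. Without the replicate block, in a fit that ignores the batch pairing, the counts were 2 for the difference, 158 and 64 for gastrin with and without cycloheximide, 2944 for cycloheximide alone and 1 of the 241 rises called below 0. With 1 value per block they were 376, 1035 and 1401 in that order of comparisons, 37 of the rises and 1 for the difference between times. With 1 value per batch they were 165, 1021, 741 and 3437, 24 of the rises and 50 for the difference between times. With the spread of all samples from 1 to 6 h the difference had 59 calls, and with trend and robust eBayes 41. At 6 h alone, with 2 blocks, the counts were 2, 70, 28 and 2847 with 1 of the rises, and at 4 h alone 0, 266, 187 and 3492 with 0 of the rises. A size minimum of 1 for the rises left 2. Leaving out each batch gave 1 to 32 for the difference, 147 to 414 and 97 to 457 for gastrin with and without cycloheximide, 2710 to 4882 for cycloheximide alone and 1 to 6 of the rises. Batch 5 gave the lowest of these counts. Centring on ribosomal protein genes moved the median difference of all probes by 0.0398 and called 36. The causes were not tested. Changes of genes near the ends of the scale may be compressed, detection calls were not analysed here, and the number of batches limits what can be resolved.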

Other observations

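Several other gene groups had 0 members called in the difference of differences. Over all probes 0.0755% were called above 0 and 0.0444% below it, so 0 calls do not set groups of this size apart. The groups were 29 genes of ribosome biogenesis, 16 p53 targets, 23 genes of apoptosis and survival, 29 neuroendocrine genes, 17 genes of gastrin receptor signalling and 15 heat shock genes. Among the heat shock genes Hspb1, a small chaperone, was at -0.37 (adjusted p = 0.151). None of 18 genes of cholesterol and lipid synthesis was called either, and their median of -0.04 covered -0.24 at 6 h alone and 0.08 at 4 h alone.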
